A study of Mus musculus with 12 samples.

Results

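The transcripts of the mitochondrial genome were examined in OT-1 CD8+ T cells of the mouse, whose transgenic receptor recognises a peptide of ovalbumin. The members are the genes that GENCODE M21 places on the mitochondrial chromosome, and 37 of 55487 gene identifiers met this rule. They are 13 protein-coding genes, 2 ribosomal RNA (rRNA) genes and 22 transfer RNA (tRNA) genes, and each of the 37 passed the low-count filter in both comparisons. There were 12 samples, 3 in each of 4 groups. Spleens of either sex gave the cells of the first groups, called Female and Male, which were stimulated over 3 days with IL2 and with beads against CD3 and CD28. WT and KD came from another batch, made from male cells that were electroporated and then kept in culture for 3 days. The KD cells were given Cas9 with a guide RNA against Kdm5d, a histone demethylase gene of the Y chromosome, and the WT cells were given guide RNA without Cas9. No group received Cas9 without that guide, so effects of Cas9 and of reduced Kdm5d cannot be told apart. The ages of the mice and the number of mice or cultures behind the samples are not given in the labels, so p-values measure the spread between these samples, which may be technical. The first comparison asks how male and female cells differ, and the second what the Kdm5d guide with Cas9 changes in male cells.

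The mitochondrial genome is a small circle that is transcribed from both strands into long precursors. Its tRNA genes lie between most of the other genes, and cutting the tRNAs out of a precursor releases the rRNAs and messenger RNAs on either side. The messenger RNAs encode core subunits of respiratory complexes I, III, IV and V, the rRNAs form the mitochondrial ribosome, and the tRNAs serve translation in the organelle. The polymerase and the factors that process, stabilise and translate these RNAs are encoded in the nucleus. T cells raise their mitochondrial content and their respiration after activation.

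The sequences that bear on how the counts can be read are shown first, 5′ to 3′, from the GENCODE transcripts of build GRCm38. The first 5 tRNAs lie on the minus strand at chrM:5018-5086, chrM:5089-5159, chrM:5192-5257, chrM:5260-5326 and chrM:6870-6938, and together they held most of the tRNA counts. The last 3 are neighbours on the plus strand between mt-Nd4 and mt-Nd5, at chrM:11546-11612, chrM:11613-11671 and chrM:11671-11741. Capitals mark the anticodon, found as the known triplet for each tRNA after a T in the anticodon loop.
mt-Ta: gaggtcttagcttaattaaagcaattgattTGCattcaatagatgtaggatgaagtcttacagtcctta
mt-Tn: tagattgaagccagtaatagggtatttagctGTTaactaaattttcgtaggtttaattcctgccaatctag
mt-Tc: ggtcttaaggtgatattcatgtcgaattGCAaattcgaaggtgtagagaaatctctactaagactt
mt-Ty: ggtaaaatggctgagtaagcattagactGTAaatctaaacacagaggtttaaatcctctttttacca
mt-Ts1: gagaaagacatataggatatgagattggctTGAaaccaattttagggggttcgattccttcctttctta
mt-Th: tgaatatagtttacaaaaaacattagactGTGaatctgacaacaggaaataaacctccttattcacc
mt-Ts2: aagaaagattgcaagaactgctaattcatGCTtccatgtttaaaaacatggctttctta
mt-Tl2: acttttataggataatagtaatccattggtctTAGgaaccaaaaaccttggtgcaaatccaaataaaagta

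Several members overlap, and a read there fits both of them where they share a strand. For members on opposite strands this depends on how strand was used in counting. mt-Nd6 is the 1 coding gene on the minus strand, and its last 14 bases lie opposite the last 14 bases of mt-Nd5. The ends of the 2 genes, at chrM:13522-13565 (mt-Nd5) and chrM:13552-13595 (mt-Nd6), are shown with those bases in capitals.
mt-Nd5 end: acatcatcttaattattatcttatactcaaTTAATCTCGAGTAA
mt-Nd6 end: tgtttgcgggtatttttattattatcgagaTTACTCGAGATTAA
mt-Atp8 and mt-Atp6 share 43 bases of the same strand, which are in capitals in the end of mt-Atp8 at chrM:7910-7969.
mt-Atp8 end: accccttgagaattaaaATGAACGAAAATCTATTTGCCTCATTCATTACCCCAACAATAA

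Other genes share longer stretches with the nuclear genome. On chromosome 1, GENCODE lists 7 pseudogenes between 24611535 and 24616197 on the minus strand that copy mitochondrial genes, and their 4149 aligned bases differ from the mitochondrial ones at 7 positions. The copies of mt-Co2 (Gm28661), mt-Atp6 (Gm10925), mt-Co3 (Gm28437) and mt-Nd4l (Gm10222) had 0 differences and cover at least 99.0% of each gene. Gm28439 and Gm29216 copy 63.6% of mt-Nd4 and 31.8% of mt-Co1. The copy of mt-Nd3, Gm28438, differed by T3C, with positions counted from the first base of mt-Nd3. The first 40 bases of each are shown, mt-Nd3 at chrM:9459-9498 and Gm28438 at chr1:24613080-24613119, with the differing base in capitals.
mt-Nd3 start: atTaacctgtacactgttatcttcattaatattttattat
Gm28438 start: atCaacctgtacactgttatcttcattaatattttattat

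The libraries held between 78748647 and 110803318 counts. Levels are given as CPM, counts scaled to a common library size with TMM factors. Mean Kdm5d was 0.00709 CPM for Female, 50.8 for Male, 50.9 for WT and 22.03 for KD. The 6 CD8 T cell markers fixed for the check summed to 1908 to 1923 CPM in Female and 1938 to 1963 in Male, without overlap. Their sum was higher in WT, at 2412 to 2456 CPM, than in KD, at 2125 to 2179. The CD4 T cell list (Cd4, Zbtb7b and Foxp3) summed to 87.15 to 89.55 CPM in Female and 53.9 to 57.3 in Male, and to 43.3 to 45.8 in WT and 39.9 to 42.6 in KD, without overlap in either comparison. Most of that sum was Zbtb7b, and Cd4 itself was at or below 0.201 CPM in each library. Lists for B, myeloid, NK and dendritic cells each summed to at most 7.17 CPM. Ms4a1, S100a8, S100a9, Siglech and the 4 globin genes were at 0 in each library of both tables.

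Levels were compared between genes as CPM per kilobase of gene. Among coding genes the order began in every group with mt-Co1 and mt-Co3, which encode subunits of cytochrome c oxidase (complex IV). In Female mt-Co1 was at 2625 ± 57.0 CPM per kilobase and mt-Co3 at 906.1 ± 20.1 (SD, n = 3). mt-Co2 (320.1 ± 9.53) and mt-Cytb (317.9 ± 9.45), the complex III subunit, followed and did not differ beyond their spread. The lowest coding gene in every group was mt-Atp8, a small subunit of ATP synthase, at 33.0 ± 1.41 in Female and 30.0 ± 2.10 in KD. Between them lay the 7 complex I genes and mt-Atp6, from 171.3 ± 6.65 for mt-Nd1 down to 42.7 ± 1.71 for mt-Nd2 among the complex I genes in Female. The lowest of these, mt-Nd4l and mt-Nd2, did not differ beyond their spread in Female, WT or KD. Tandem genes of 1 precursor thus differed in CPM per kilobase. How far gene length, overlaps between genes and the counting of shared reads shape these values was not tested.

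**Figure D1:**
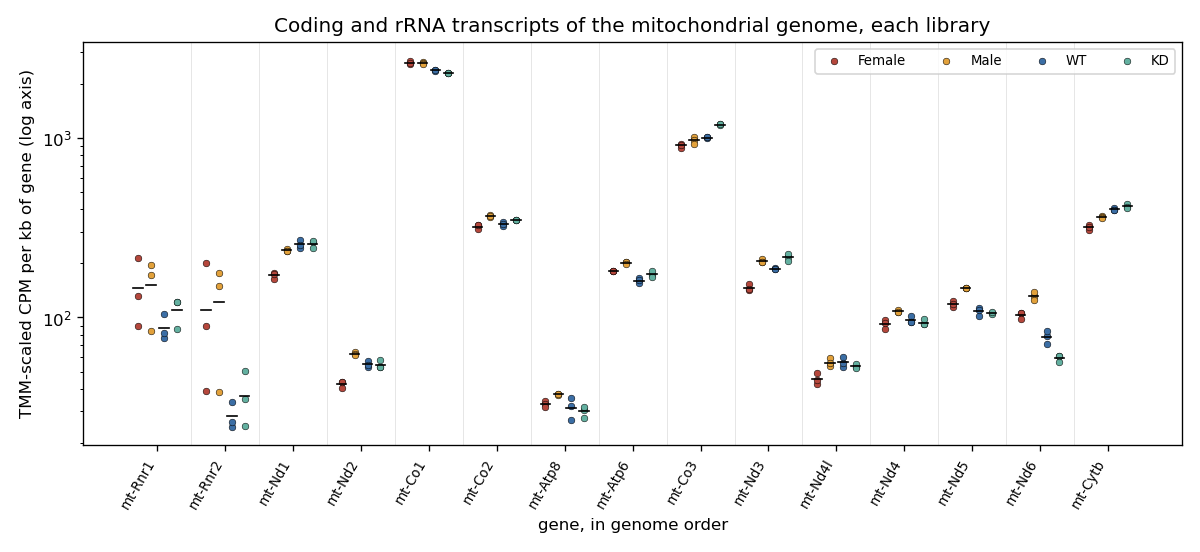
Level of each coding and rRNA gene as TMM-scaled CPM per kilobase on a log axis, in genome order. Points are libraries (3 in each of Female, Male, WT and KD) and bars are group means. mt-Co1 is the highest gene in every library, and the rRNAs have the widest spread between libraries.

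The rRNAs were measured after depletion of ribosomal RNA during library preparation, so their values are what the depletion left. mt-Rnr1 was at 145.1 CPM per kilobase and mt-Rnr2 at 110.0 in Female, both below mt-Co3. mt-Rnr2 held 26961, 13367 and 6027 counts in the 3 Female libraries and 22105, 25972 and 5368 in the 3 Male libraries. The third library of each sex was the lowest, and the groups overlapped.

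The tRNAs are shorter than most fragments that such libraries keep, and the counts do not separate a mature tRNA from a precursor that contains it. Their levels in Female ran from 2.24 CPM per kilobase for mt-Tf to 356.9 for mt-Ts1. The 8 tRNA genes on the minus strand held 77.55% ± 0.88 (SD, n = 3) of the tRNA counts in Female, 73.9% ± 1.30 in Male, 73.3% ± 0.84 in WT and 73.6% ± 0.74 in KD. The 5 printed minus-strand tRNAs alone, for alanine, asparagine, cysteine, tyrosine and serine, held 73.4% in Female and 69.55% in Male. Minus-strand members are all tRNAs other than mt-Nd6. How strand was used in counting is not given in the sources used here. Tsix, which lies opposite Xist over 1980 of its 6077 exonic bases, held 12, 0 and 23 counts in the Female libraries, where Xist held 189620 to 226445.

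**Figure D2:**
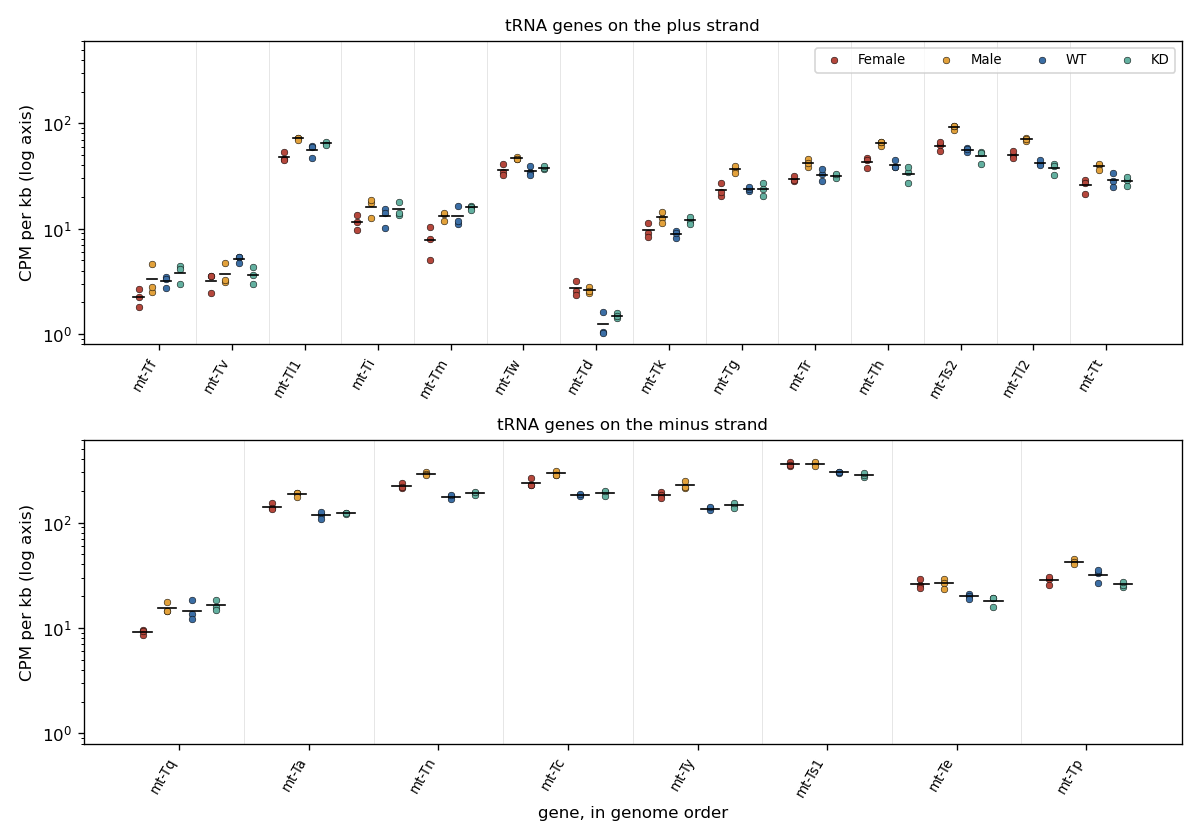
Level of each tRNA gene as TMM-scaled CPM per kilobase on a log axis, plus-strand genes above and minus-strand genes below. Points are libraries and bars are group means. mt-Ta, mt-Tn, mt-Tc, mt-Ty and mt-Ts1 on the minus strand lie above every tRNA gene of the plus strand.

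As a share of all counts the mitochondrial genes were a small part of these libraries. The 37 genes held 0.685%, 0.640% and 0.645% of the counts in Female and 0.710%, 0.703% and 0.668% in Male. The groups overlapped (exact two-sided permutation p 0.2, where 0.1 is the smallest that 3 against 3 samples allow). Coding genes alone held 0.615% ± 0.0104 (SD, n = 3) in Female and 0.647% ± 0.0087 in Male, with no overlap (exact permutation p 0.1). The tRNAs held 0.0107% and 0.0133% (exact permutation p 0.1), and the rRNAs 0.0312% ± 0.0188 and 0.0336% ± 0.0171 (exact permutation p 1). In the other table, the 37 genes held 0.625%, 0.604% and 0.613% in WT and 0.643%, 0.640% and 0.639% in KD. KD was higher in each library (exact permutation p 0.1), as it was for the coding genes alone, at 0.5925% ± 0.0082 in WT and 0.615% ± 0.0030 in KD (exact permutation p 0.1). These shares are of raw library totals. On that scale the coding share differed by a log2 ratio of 0.05, and the median log2 difference over all genes tested was also 0.05, so the coding share moved no more than the typical gene. In Male against Female the same values were 0.07 and 0.01. The tRNA share of 0.00899% in WT and 0.00936% in KD overlapped (exact permutation p 0.3), as did the rRNA share (exact permutation p 0.2). In bulk RNA, a different mix of cells and a different amount of mitochondrial RNA per cell cannot be told apart.

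Between Male and Female, the coding genes of complex I were higher in Male and mt-Co1 was not. A gene is called here at an edgeR quasi-likelihood adjusted p under 0.05 over all genes tested. Of the 13 coding genes, 11 were called higher and 0 lower. Of the 20208 genes tested, 49.8% were called, 23.5% higher and 26.3% lower. For 27 of the 37 mitochondrial genes the groups did not overlap in CPM, as for 58.3% of all genes tested. The median log2 difference, Male minus Female, was 0.23 over the coding genes and 0.01 over all genes tested. No coding gene was lower at an unadjusted p under 0.05, and by DESeq2 and limma-voom each of the 13 genes fell on the same side of the threshold.

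All 7 complex I genes, which encode subunits of NADH dehydrogenase, were called higher in Male, with log2 differences from 0.23 to 0.56. mt-Nd2 was at 42.3, 45.1 and 45.5 CPM in Female and 67.0, 64.7 and 64.5 in Male. Every Male library was above every Female library, and the log2 difference was 0.56 (SE 0.036, edgeR adjusted p 3.91e-07). mt-Nd3 was at 53.3, 49.2 and 50.1 CPM in Female and 74.1, 71.0 and 70.5 in Male. The groups did not overlap, with a log2 difference of 0.50 (SE 0.036, edgeR adjusted p 1.10e-06). mt-Nd1, the first coding gene after the rRNAs, was at 168.7, 156.7 and 166.5 CPM in Female and 230.6, 224.2 and 224.0 in Male. It also differed without overlap, by 0.46 (SE 0.030, edgeR adjusted p 4.35e-07). The log2 differences of mt-Nd5 and mt-Nd4l, of the same strand, were both 0.30, and that of mt-Nd4 was 0.23. mt-Nd6, read from the other strand, was at 54.9, 54.9 and 51.0 CPM in Female and 67.95, 65.0 and 72.3 in Male. Its groups did not overlap, and its log2 difference of 0.35 (SE 0.044, edgeR adjusted p 6.67e-05) lay among those of the plus-strand complex I genes.

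The genes of the other complexes differed by less. mt-Cytb was at 373.5, 352.1 and 365.4 CPM in Female and 421.2, 414.7 and 411.3 in Male, a log2 difference of 0.19 (SE 0.024, edgeR adjusted p 6.02e-05) with no overlap. mt-Co2 differed by 0.20 (SE 0.026, edgeR adjusted p 9.63e-05) and mt-Atp6, the proton channel subunit of ATP synthase, by 0.15 (SE 0.021, edgeR adjusted p 1.65e-04). mt-Co3 differed by 0.09 (SE 0.030, edgeR adjusted p 0.0239), and its call was lost without Female replicate 1 or 2 or Male replicate 1 or 2, with edgeR adjusted p between 0.0518 and 0.129, and without the low-count filter (edgeR adjusted p 0.112). mt-Co1 was at 4150, 3976 and 4042 CPM in Female and 4095, 4035 and 3974 in Male. The groups overlapped, and the log2 difference was -0.01 (SE 0.016, edgeR adjusted p 0.731). mt-Atp8 was higher in each Male library but was not called, with a log2 difference of 0.18 (SE 0.079, edgeR adjusted p 0.0922).

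Of the 22 tRNAs, 15 were called higher in Male and 0 lower, 9 of 14 on the plus strand and 6 of 8 on the minus strand. Their log2 differences were between 0.29 and 0.78. The asparagine tRNA mt-Tn was at 16.9, 15.0 and 15.45 CPM in Female and 21.4, 20.5 and 20.1 in Male. Every Male library was higher, by a log2 difference of 0.39 (SE 0.057, edgeR adjusted p 2.07e-04). The leucine tRNA mt-Tl1, which follows mt-Rnr2, was at 4.02, 3.40 and 3.36 CPM in Female and 5.45, 5.44 and 5.26 in Male, a log2 difference of 0.58 (SE 0.111, edgeR adjusted p 0.00134). The adjacent mt-Th, mt-Ts2 and mt-Tl2, printed above, differed by 0.58, 0.58 and 0.50. mt-Ts1, which lies opposite the end of mt-Co1 and shares 3 base pairs with it, was at 26.0, 23.6 and 24.3 CPM in Female and 25.1, 25.7 and 23.7 in Male. Its groups overlapped, with a log2 difference of 0.01 (SE 0.050, edgeR adjusted p 0.865), next to the value of mt-Co1. mt-Te, the glutamate tRNA next to mt-Nd6 on the same strand, differed by 0.02 (edgeR adjusted p 0.945). Without 1 library the calls of mt-Tm and mt-Tw were lost in 5 of the 6 such fits each.

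Neither of the 2 rRNAs was called between Male and Female by edgeR, and 0 of 2 had an unadjusted p under 0.05. The log2 difference of mt-Rnr1 was 0.06 (SE 0.329, edgeR adjusted p 0.906) and that of mt-Rnr2 was 0.15 (SE 0.585, edgeR adjusted p 0.861). DESeq2 and limma-voom called neither.

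These differences depended on whether trends with transcript length and GC content were removed from each library. The tRNAs are 59 to 75 bases long and hold 17.1% to 44.9% GC, and the coding genes are 204 to 1824 bases long and hold 31.9% to 41.1% GC. With the trends removed, 7 coding genes were called, 4 higher (mt-Nd1, mt-Nd2, mt-Nd3 and mt-Nd5) and 3 lower (mt-Co1, mt-Atp6 and mt-Co3), and the median was 0.02. Of the tRNAs, none was then called higher and 1, mt-Ts1, was called lower, by 0.40. The trend was fitted over all 20149 genes tested in that fit, the mitochondrial genes among them. Of these 20149 genes 9921 were called, 50.78% of them higher. Within the length and GC range of the coding genes lay 524 nuclear genes, and 42 lay within that of the tRNAs. Of the 7 complex I genes, 4 were still called, with smaller log2 differences of 0.36 for mt-Nd2, 0.26 for mt-Nd1, 0.17 for mt-Nd5 and 0.16 for mt-Nd3 (edgeR adjusted p 7.40e-06 to 0.0078). The other 3 were no longer called, at 0.06 for mt-Nd4, 0.06 for mt-Nd6 and 0.01 for mt-Nd4l.

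**Figure D3:**
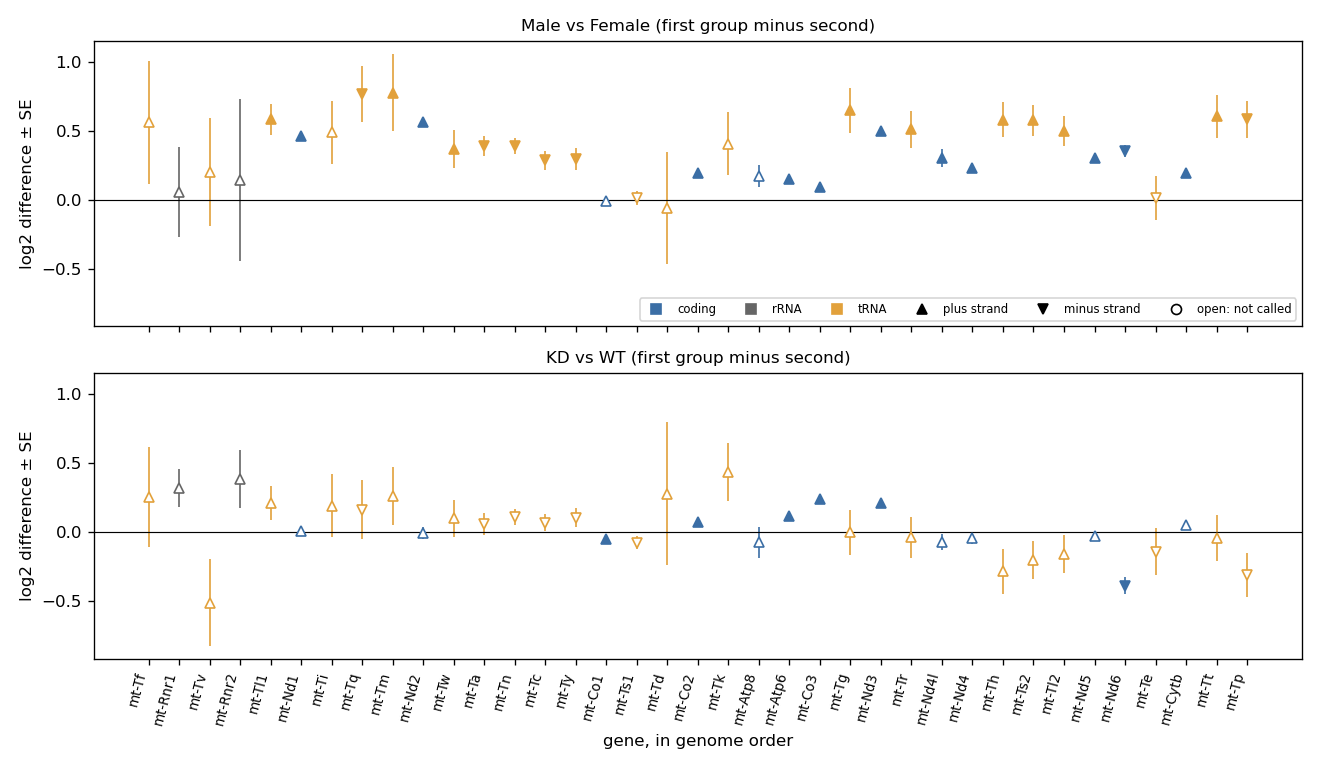
Log2 difference with its standard error for each of the 37 genes in genome order, Male minus Female above and KD minus WT below. Filled symbols are called by edgeR, triangles pointing up are plus-strand and pointing down minus-strand genes. Most coding genes and tRNAs lie above 0 in the first comparison, and in the second the called higher genes lie between mt-Co2 and mt-Nd3.

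A ratio among mitochondrial genes does not depend on how a library is scaled. mt-Co1 made up 66.0%, 66.2% and 65.7% of the coding mitochondrial counts in Female and 62.4%, 62.3% and 62.4% in Male. The complex I genes together made up 11.0%, 10.75% and 10.9% in Female and 13.2%, 13.3% and 13.6% in Male. Both shares changed without overlap (exact permutation p 0.1 each), mt-Co1 downward and complex I upward. They are parts of the same total, so a rise in other genes lowers the mt-Co1 share even where mt-Co1 itself is unchanged. In CPM mt-Co1 overlapped between Female and Male, as given above. The mt-Co3 share of 11.55% ± 0.13 in Female and 11.7% ± 0.35 in Male overlapped (exact permutation p 0.5). Per 100 mt-Co1 counts there were 4.04 ± 0.091 mt-Nd1 counts in Female and 5.61 ± 0.045 in Male. When libraries were scaled to their coding mitochondrial counts, an alternative chosen after seeing the data, 9 coding genes were called higher and mt-Co1 was called lower (log2 difference -0.08, edgeR adjusted p 0.00243). In that fit 48.7% of all genes were called, 18.1% higher and 30.6% lower. The 7 complex I genes were among the 9.

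**Figure D4:**
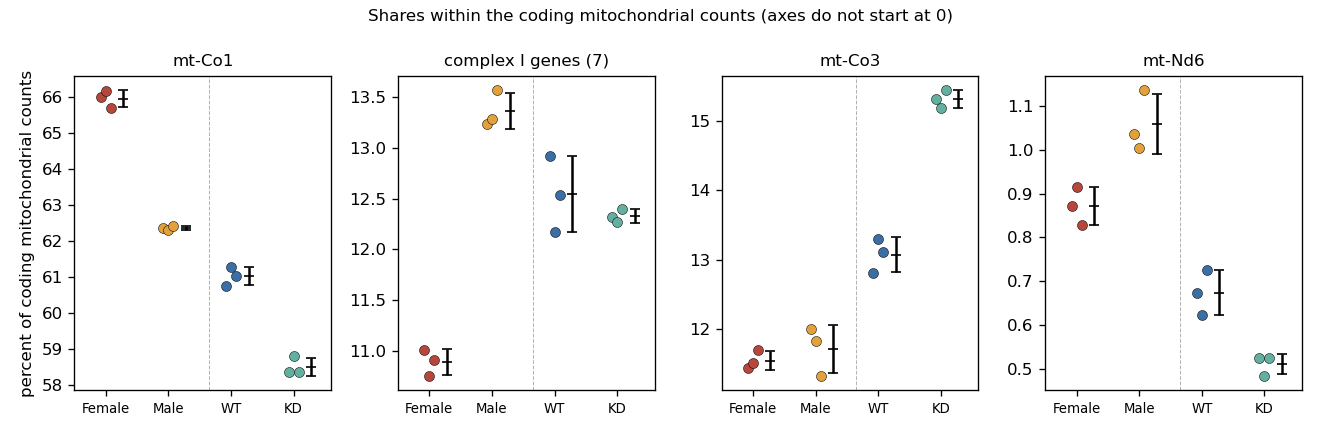
Percent of coding mitochondrial counts in mt-Co1, the 7 complex I genes, mt-Co3 and mt-Nd6, for each library (points) with the group mean and SD beside them. The axes do not start at 0. mt-Co1 is lower in Male than Female and in KD than WT, complex I is higher in Male, and mt-Co3 is higher and mt-Nd6 lower in KD.

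Between KD and WT, mt-Co2, mt-Atp6, mt-Co3 and mt-Nd3 were called higher in KD, and mt-Nd6 and mt-Co1 lower. The calls of mt-Co2, mt-Atp6 and mt-Co1 depended on the fit, as given below. Over all 37 mitochondrial genes, 31 were not called. Of the 13 coding genes 4 were called higher and 2 lower, where 35.1% of the 20413 genes tested were called, 16.8% higher and 18.4% lower. For 10 of the 37 the groups did not overlap in CPM, as for 46.8% of all genes tested. The median log2 difference, KD minus WT, was -0.01 over the coding genes and 0.01 over all genes tested. With the length and GC trends removed 4 coding genes were called, mt-Co3 and mt-Nd3 higher and mt-Nd6 and mt-Co1 lower. In that fit 7335 of all 20357 genes tested were called, 47.36% of them higher.

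The 4 genes higher in KD were mt-Co2, mt-Atp6, mt-Co3 and mt-Nd3, which lie next to one another apart from tRNA genes and mt-Atp8. mt-Co3 was at 779.6, 787.6 and 789.3 CPM in WT and 929.9, 921.7 and 934.6 in KD. The groups lay far apart relative to their spread, with a log2 difference of 0.24 (SE 0.014, edgeR adjusted p 7.06e-07). mt-Nd3 was at 65.7, 64.8 and 65.0 CPM in WT and 75.5, 72.2 and 78.1 in KD. Each KD library was higher, by 0.21 (SE 0.034, edgeR adjusted p 8.62e-04). mt-Atp6 was at 112.7, 105.4 and 110.0 CPM in WT and 117.8, 114.5 and 122.9 in KD, with no overlap and a log2 difference of 0.11 (SE 0.035, edgeR adjusted p 0.0261). mt-Co2 was at 233.6, 220.6 and 227.6 CPM in WT and 237.5, 239.0 and 239.6 in KD, a log2 difference of 0.07 (SE 0.024, edgeR adjusted p 0.0428). The calls of mt-Atp6 and mt-Co2 rested on few libraries. That of mt-Co2 was lost without WT replicate 2 or 3 or any 1 KD replicate (edgeR adjusted p 0.0745 to 0.161), and that of mt-Atp6 without WT replicate 2 or 3 or KD replicate 1 or 3 (edgeR adjusted p 0.0573 to 0.111). Without the low-count filter neither was called (edgeR adjusted p 0.0884 for mt-Co2 and 0.05025 for mt-Atp6). mt-Atp8, which shares the printed 43 bases with mt-Atp6, was not called, at -0.07 (SE 0.113, edgeR adjusted p 0.680).

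mt-Nd6 was at 41.0, 36.9 and 43.7 CPM in WT and 31.85, 29.4 and 31.8 in KD. All KD libraries were below all WT libraries, and the log2 difference was -0.39 (SE 0.062, edgeR adjusted p 7.03e-04). mt-Nd5, which ends opposite it, differed by -0.02 (SE 0.035, edgeR adjusted p 0.653). For every 100 mt-Nd5 counts there were 20.6 ± 1.02 mt-Nd6 counts in WT and 16.0 ± 0.58 in KD (exact permutation p 0.1). In Female and Male this ratio was 24.8 ± 1.44 and 25.7 ± 1.30 and overlapped (exact permutation p 0.5). mt-Co1 was at 3697, 3629 and 3672 CPM in WT and 3542, 3568 and 3534 in KD. The groups did not overlap, and the log2 difference of -0.05 (SE 0.011, edgeR adjusted p 0.00714) was small. It was -0.01 (edgeR adjusted p 0.654) with library totals in place of TMM factors.

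The other complex I genes were not called, with log2 differences of 0.01 for mt-Nd1, -0.01 for mt-Nd2, -0.04 for mt-Nd4 and -0.07 for mt-Nd4l. mt-Cytb was at 467.6, 453.0 and 454.9 CPM in WT and 488.2, 473.9 and 466.9 in KD. Its groups overlapped, with a log2 difference of 0.06 (SE 0.022, edgeR adjusted p 0.0769), and it was called with library totals in place of TMM factors, at 0.09 (edgeR adjusted p 0.0071).

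None of the 22 tRNAs was called between KD and WT by edgeR, DESeq2 or limma-voom, and 0 had an unadjusted p under 0.05 in edgeR. Of their log2 differences 12 were above 0 and 10 below, from -0.51 to 0.44. mt-Tv, with 20 to 36 counts per library, and mt-Tk, with 51 to 81, marked these ends. mt-Te next to mt-Nd6 was at 1.44, 1.38 and 1.31 CPM in WT and 1.31, 1.10 and 1.34 in KD. mt-Tp, also on the minus strand, was at 2.24, 1.80 and 2.40 CPM in WT and 1.64, 1.71 and 1.84 in KD. Both sets of libraries overlapped. At this depth, SEs of the tRNA log2 differences reached 0.52, for mt-Td with 7 to 12 counts per library.

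The rRNAs were at higher means in KD and were not called. mt-Rnr1 was at 99.8, 73.1 and 78.0 CPM in WT and 115.8, 115.9 and 82.2 in KD, and mt-Rnr2 was at 53.5, 38.85 and 41.2 in WT and 55.7, 79.5 and 39.4 in KD. The groups overlapped for both genes, with log2 differences of 0.32 (SE 0.139, edgeR adjusted p 0.103) and 0.39 (SE 0.210, edgeR adjusted p 0.197). Of the 2, 1 had an unadjusted p under 0.05, and neither was called by DESeq2 or limma-voom. Without KD replicate 3 both were called, at 0.47 and 0.60 (edgeR adjusted p 0.0103 and 0.0198). Without WT replicate 1, mt-Rnr1 was called, at 0.47 (edgeR adjusted p 0.02485).

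Within the coding mitochondrial counts, mt-Co3 made up 12.8%, 13.3% and 13.1% in WT and 15.3%, 15.2% and 15.4% in KD. mt-Co1 made up 60.8%, 61.3% and 61.0% in WT and 58.4%, 58.8% and 58.4% in KD, and mt-Nd6 0.674%, 0.623% and 0.726% in WT and 0.525%, 0.484% and 0.525% in KD. None of these 3 shares overlapped between the groups (exact permutation p 0.1 each). The complex I share of 12.55% ± 0.37 in WT and 12.3% ± 0.06 in KD did overlap (exact permutation p 0.4). Scaled to the coding mitochondrial counts, 3 coding genes were called higher (mt-Co3, mt-Nd3 and mt-Atp6) and 2 lower, where 34.5% of all genes were called, 15.3% higher and 19.2% lower. The summed levels of the B, myeloid, NK and dendritic cell lists were lower in KD than in WT, without overlap. Each of these lists had 1 gene called lower and 0 higher. The median log2 difference of the 3 myeloid genes tested was 0.04. The B cell list summed to 5.37 to 6.49 CPM in WT and 4.00 to 5.10 in KD, the myeloid list to 6.20 to 7.17 and 4.32 to 5.18, the NK cell list to 1.504 to 1.598 and 0.590 to 1.24, and the dendritic cell list to 3.09 to 4.07 and 0.875 to 1.51. The CD4 list was also lower in KD, as given above. Most of its sum was Zbtb7b and Cd4 itself was very low in each library of both tables, so the sum does not measure a content of CD4 T cells. In the other table the CD4 list was lower in Male by a median log2 difference of -0.72 over its 3 genes, with 2 called lower and 1 higher. There the NK cell list summed to 0.165 to 0.457 CPM in Female and 0.486 to 0.531 in Male, and the myeloid list to 2.27 to 3.02 and 3.32 to 3.51, both without overlap. The B cell list, at 3.835 to 3.966 CPM in Female and 3.812 to 4.758 in Male, overlapped. So did the dendritic cell list, at 0.330 to 0.543 and 0.428 to 0.509. The part of such cells in the differences of mitochondrial genes was not tested.

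The 4 genes higher in KD are all genes with a nearly full copy on chromosome 1, so the counts of the copies were set beside them. Gm28437 held between 99.63 and 99.91 counts per 100 mt-Co3 counts in the 12 libraries. Gm10925 held 100.2 to 100.8 per 100 mt-Atp6 counts, and Gm28661 97.8 to 98.7 per 100 mt-Co2 counts. Gm28438, which differs at 1 base, held 89.4 ± 1.20 per 100 mt-Nd3 counts in Female, 89.4 ± 0.62 in Male, 91.1 ± 0.90 in WT and 92.8 ± 0.43 in KD. The partial copies held fewer, 31.2 ± 1.05 per 100 for Gm28439 and mt-Nd4 and 14.5 ± 0.14 for Gm29216 and mt-Co1 in Female. How reads that match both places were counted is not given in the sources used here, so the counts do not show from which place such reads came.

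Between Male and Female each of the 7 copies fell on the same side of the threshold as its gene. Between KD and WT this held for 6 of 7, the exception being Gm29216, the partial copy of mt-Co1, which was not called at -0.04 (SE 0.027, edgeR adjusted p 0.366). Gm28437 differed by 0.24 between KD and WT (SE 0.014, edgeR adjusted p 7.19e-07) and Gm28438 by 0.23 (SE 0.034, edgeR adjusted p 3.68e-04). Gm10222 and Gm28439 were not called in KD, nor were mt-Nd4l and mt-Nd4. The 7 copies together took 0.173% ± 0.0032 of the Female counts against 0.185% ± 0.0036 for Male, and 0.174% ± 0.0019 of the WT counts against 0.1945% ± 0.00075 for KD (exact permutation p 0.1 in each comparison). When the copies' counts were added to the genes, the 11 calls between Male and Female and the 6 between KD and WT remained on the same side of the threshold. Each copy held nearly the same fraction of its gene's counts in every library, so this sum could hardly change a difference. It cannot tell gene and copy apart, and the calls of the copies are not results separate from those of their genes.

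**Figure D5:**
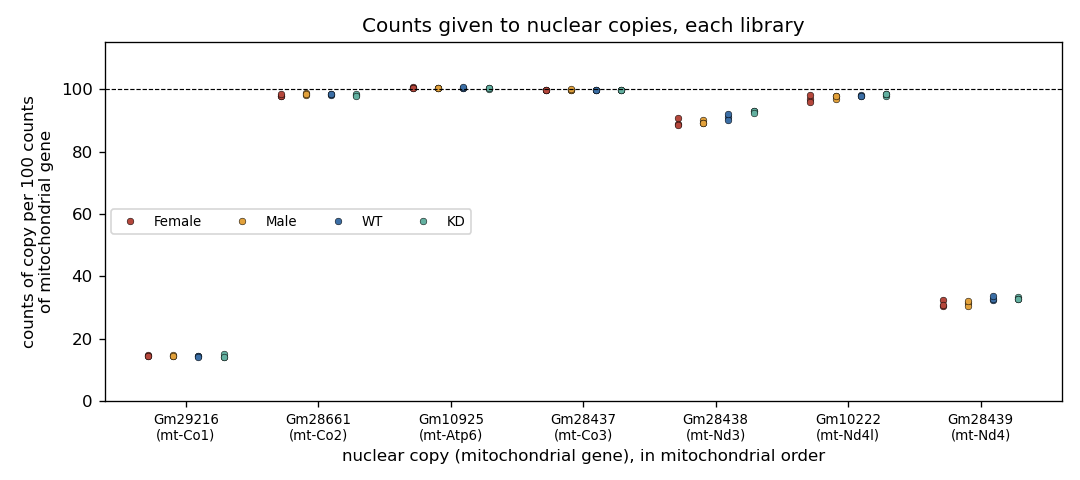
Counts of each nuclear copy per 100 counts of its mitochondrial gene, one point per library, with the copies in mitochondrial order and the dashed line at equal counts. The copies of mt-Co2, mt-Atp6, mt-Co3 and mt-Nd4l lie near 100 in every library, and those of mt-Nd4 and mt-Co1, which cover part of the gene, lie below 35.

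Nuclear genes that transcribe, process and translate mitochondrial RNA were taken from 8 lists of 106 genes, of which 104 were tested. Between Male and Female 40 were called higher and 25 lower, with a median log2 difference of 0.05. Between KD and WT 18 were called higher and 14 lower, with a median of 0.02. With TMM factors, 49.8% of all genes tested were called in Male against Female, 23.5% higher and 26.3% lower. In KD against WT 35.1% were called, 16.8% higher and 18.4% lower. The counts of the single lists below stand beside these same shares, and no list was tested as a set. With library totals in place of TMM factors the split in KD against WT was 26 higher and 5 lower. In that fit 7277 of all 20413 genes tested were called, 57.06% of them higher, and the median over all genes was 0.05.

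Of the 13 transcription and nucleoid genes, 5 were higher and 1 lower in Male, and 4 were higher and 1 lower in KD. Polrmt, the mitochondrial RNA polymerase, differed by 0.28 in Male (SE 0.053, edgeR adjusted p 0.00138) and by 0.28 in KD (SE 0.035, edgeR adjusted p 1.17e-04). Tfam, which packages mitochondrial DNA and starts transcription, was not called in either, with means of 68.3 CPM (Female), 68.8 (Male), 53.7 (WT) and 55.1 (KD). Tfam and, below, Slirp were named after their values were seen. Lonp1, the matrix protease, averaged 103.0 CPM among Female and 162.7 among Male libraries (log2 difference 0.66), and the nucleoid protein Atad3a at 35.6 and 56.0 (0.65). Top1mt, the mitochondrial topoisomerase, differed by 0.77 in Male and 0.56 in KD. Tfb1m, an rRNA methyltransferase, was lower in Male, at 13.9 against 20.7 CPM (log2 difference -0.57).

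Of the 6 tested genes of precursor processing, 2 were higher and 3 lower in Male, and 1 was higher in KD. Elac2, which cuts tRNA 3′ ends, was higher in Male, at 51.55 against 36.2 CPM, a log2 difference of 0.51 (SE 0.034, edgeR adjusted p 5.57e-07). Fastkd5, which is needed to process precursors that no tRNA punctuates, differed by 0.57 in Male and 0.24 in KD. Hsd17b10, a subunit of the enzyme that cuts tRNA 5′ ends, was lower in Male by 0.15.

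Of the 14 genes of RNA stability and decay, 9 were higher and 2 lower in Male. Lrpprc and Slirp, which together bind and stabilise mitochondrial messenger RNAs, differed by 0.50 and 0.90, with edgeR adjusted p of 2.25e-07 and 3.16e-05. The exonuclease gene Pnpt1 differed by 0.54, and Grsf1, which encodes a protein of mitochondrial RNA granules, by -0.36. In KD 1 of the 14 was higher, Lrpprc by 0.30 (edgeR adjusted p 6.61e-06), and 4 were lower, among them Slirp (-0.18), Pnpt1 (-0.15) and Rexo2 (-0.15), a gene for an oligoribonuclease. The 2 partners Lrpprc and Slirp thus moved the same way in Male and opposite ways in KD.

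Among the 15 genes of mitochondrial DNA maintenance, 6 were higher and 6 lower in Male, and 2 were higher and 3 lower in KD. The nuclease gene Dna2 differed by 0.74 in Male and 0.37 in KD, Primpol, a primase and polymerase, by -0.80 in Male, and Polg, the catalytic subunit of the DNA polymerase, by 0.27 in KD. Of the biogenesis regulators 2 of 7 tested were higher and 4 lower in Male, with Pprc1, a coactivator related to PGC-1, at 0.34, and 3 were higher and 1 lower in KD, with Pprc1 at 0.18.

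Among the 19 tRNA and rRNA modification genes, 7 were higher and 5 lower in Male, and 3 were higher and 2 lower in KD. The tRNA cytosine methyltransferase gene Nsun2 differed by 0.59 and 0.25, Qtrt2, a subunit of the queuine transferase, by 0.57 and 0.45, and Mrm1, an rRNA methyltransferase, by -0.78 in Male. Of 17 tRNA synthetase genes 4 were higher and 3 lower in Male, with Yars2, the tyrosine enzyme, at 0.38, and 3 were higher and 2 lower in KD. Of 13 translation genes 5 were higher and 1 lower in Male, with the elongation factors Tufm at 0.42 and Gfm1 at 0.49. In KD 1 was higher, Gfm1 by 0.19, and 1 was lower, Oxa1l, the inner membrane insertase, by 0.20. Without WT replicate 2, 20 of the 104 genes were called in KD against WT, 15 higher and 5 lower, compared with 32. In that fit 6172 of all 21067 genes tested were called.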

How the data were processed

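RNA was sequenced from total RNA extracted with a QIAGEN RNeasy kit, with stranded libraries after Ribo-Zero Plus depletion, per the labels' protocols. The submitters' processing notes name bcl2fastq 2.20.0, HISAT2, StringTie, DESeq2 and mm10. The deposited values are raw gene counts, whole numbers, in 2 tables, and how the counts were made, with which annotation and strand setting, is not given in the sources used here. Each table was analysed separately, since the batches differ. Identifiers were matched to GENCODE M21 (GRCm38, the build mm10), which left 260 unmatched, holding 2.89% to 3.44% of the counts. Each comparison used its own 6 samples in edgeR's quasi-likelihood test (edgeR 4.0.16, R 4.3.3; filterByExpr, TMM, Benjamini-Hochberg over all genes, threshold 0.05). The SE is the log2 difference divided by the square root of F. Shares and ratios were tested by exact two-sided permutation, with every split of the 6 samples enumerated (Python 3.11.15). A copy is a nuclear transcript with at least 50% of its 31-base words in a mitochondrial gene. The test was tried on simulated counts. Alternatives included DESeq2 1.42.0, limma 3.58.1, other scalings, filters, trend removal and leaving out samples. All mitochondrial genes may be named, and of each nuclear list up to 3 called genes in each direction with the smallest p. The members and lists were chosen with earlier results of these data known. Replicate numbers come from the titles alone.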

Additional observations from a re-analysis of the deposited data

How the results depend on the processing

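Of 236 recomputed summary values 224 stayed near the value reported. Near means within a factor of 1.5 for a count, and within the combined SD of the groups for a median or share. The sign of a summary was not checked. The coding median in KD against WT was -0.0065, and 0.0334 with library totals, which counts as near. Of 940 recomputed single-gene differences 798 kept their sign and their side of the threshold. In Male against Female the 32 mitochondrial genes followed were on the same side of the threshold with DESeq2, limma-voom, DESeq2 size factors, library totals, nuclear-only scaling, counts divided by 4 and added copies. The added copies could hardly move a difference, since each held a nearly constant fraction of its gene's counts.

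Removal of length and GC trends changed the most in Male against Female, with 7 coding genes and 1 tRNA called and a median of 0.0188. Of all 20149 genes tested in that fit 9921 were called. Values that changed sign there were -0.158 for mt-Rnr1, -0.0146 for mt-Rnr2, -0.0233 for mt-Tw, -0.0466 for mt-Ta, -0.0457 for mt-Tn, -0.135 for mt-Tc, -0.139 for mt-Ty, -0.395 for mt-Ts1, -0.0407 for mt-Co2, -0.207 for mt-Atp8, -0.0996 for mt-Atp6, -0.125 for mt-Co3, -0.0112 for mt-Tr and -0.412 for mt-Te. With the replicate block added the counts were again 7 and 1 and the median 0.0197, where 9618 of 20149 genes were called. The values were then -0.16 for mt-Rnr1, -0.0179 for mt-Tw, -0.0476 for mt-Ta, -0.0453 for mt-Tn, -0.134 for mt-Tc, -0.14 for mt-Ty, -0.396 for mt-Ts1, -0.04 for mt-Co2, -0.206 for mt-Atp8, -0.0997 for mt-Atp6, -0.125 for mt-Co3, -0.0134 for mt-Tr and -0.414 for mt-Te. In KD against WT mt-Nd1 was at -0.016 with the trends removed, and with the block added it was at -0.0173 and 3 coding genes were called. Of all 20357 genes tested in the fit with the block 6878 were called. The cause was not tested.

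Scaled to coding mitochondrial counts, the median was 0.162 in Male against Female, mt-Rnr1 was at -0.0149, mt-Ts1 at -0.0609, mt-Te at -0.0598 and, in KD, mt-Nd1 at -0.0037. This scaling moved the calls over all genes in Male against Female from 4753 higher and 5314 lower to 3650 and 6193. With library totals mt-Nd2 and mt-Nd5 in KD were at 0.0334 and 0.0152, and without the 10 largest nuclear rows at 0.0362 and 0.0181. The scaling to coding mitochondrial counts and the removal of the 10 largest rows were chosen after seeing the data. Without the low-count filter 3 calls ended in Male against Female (edgeR adjusted p 0.112 for mt-Co3, 0.0737 for mt-Tm and 0.0837 for mt-Tw) and 2 in KD against WT (mt-Co2 and mt-Atp6), and mt-Ts1 was at -0.0023. More genes are tested in that fit. With all 12 samples in one fit mt-Ts1 and mt-Te were at -0.0097 and -0.005.

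Same-numbered samples did not deviate together (correlations -0.0562 to 0.0312 in Male and Female, -0.0748 to 0.0274 in WT and KD). With the replicate block, 1 rRNA was called in KD against WT (mt-Rnr1, 0.318), mt-Cytb was called higher (0.0549) and mt-Co2 was not (0.071). In Male against Female the block ended 1 of the calls of single genes (mt-Tw).

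Without 1 library, the KD rRNA count was 0 to 2 and the KD machinery count 20 to 28. Differences that changed sign ran from -0.0247 to 0.0024 for mt-Co1, -0.195 to 0.44 for mt-Rnr1, -0.258 to 0.907 for mt-Rnr2, -0.059 to 0.0981 for mt-Te and -0.0203 to 0.0447 for mt-Ts1 in Male against Female. In KD they ran from -0.173 to 0.0236 for mt-Atp8, -0.0195 to 0.0457 for mt-Nd1, -0.0507 to 0.0193 for mt-Nd2 and -0.0666 to 0.0032 for mt-Nd5.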

Other observations

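The spread of the mitochondrial rRNAs between libraries was shared by other genes in the Female and Male table. Over 518 genes whose log2 CPM averaged 3 or more with an SD of 0.5 or more, the pattern most like that of mt-Rnr2 over the 6 libraries was that of mt-Rnr1 (Pearson r 0.997 of log2 CPM, here per library total without TMM factors), followed by Lars2 (0.966), CT010467.1 (0.95) and Gm23935 (0.908). Lars2, the mitochondrial leucine tRNA synthetase, was at 852.8, 268.6 and 76.8 CPM in Female and 323.5, 758.5 and 107.5 in Male, in the same order within each sex as mt-Rnr2. CT010467.1 ran from 480.4 to 15440 CPM over the 6 libraries. In the KD and WT table, over 159 genes chosen by the same rule, Gm45837 (0.902) came first, then Lars2 (0.887). CT010467.1 was at 0.64 there. Whether the counts of Lars2 come from its messenger RNA was not tested. The genes were chosen after their values were seen, the libraries share their depletion step, and the correlations are a description over 6 libraries.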
